A study of Vitis vinifera with 156 samples.

Results

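Cuttings of the grapevine (Vitis vinifera) cultivar Cabernet Sauvignon bearing dormant buds were kept at a constant 7 °C. Buds were sampled on days 7, 13, 20 and 26, and then on days 34, 41, 55 and 69, with 3 libraries a day. These 24 libraries, which are 8 of the 52 groups of 3 libraries in the series, were taken by their labels: 7 °C in phase I, up to day 26, and 7 °C again in phase II, after day 26. The question addressed was how the bud transcriptome changes with time at this temperature, between which days the changes fall, and whether they follow a straight line. For comparison, the libraries of constant 2 °C, 4 °C and 11 °C on the same 8 days (24 each) were used, with 12 libraries of buds moved on day 26 from constant 7 °C to a daily cycle around a mean of 7 °C, 5 °C to either side, sampled on days 34, 41, 55 and 69. The pretreatment buds of day 0 gave 3 libraries. All buds were in endodormancy at collection and carried the same cultivar. Each constant temperature had its own growth chamber, so that temperature and chamber cannot be told apart. The labels do not say whether a library was made from 1 bud or from several.

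In endodormancy a bud does not grow even under favourable conditions, and a period of chilling is needed before it can respond to warmth. During the same season grapevine buds gain cold hardiness, a process in which dehydrins, other protective proteins and soluble sugars accumulate while growth-related processes are held back. No gene identifiers stand beside the lines of the deposited table. A gene is therefore named by the number of its line, counted from 1 after the header, no function can be given to it, and the tissue could not be checked against marker genes. In whole buds, fewer cells of a type and less RNA per cell cannot be told apart.

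Total counts at 7 °C ran from 50271 to 4190778 per library with a median of 1932880, and 23 of the 24 libraries held at least 1329878. A pair of libraries stood apart. Day 13 replicate 3 held 50271 counts, so that 3 counts there correspond to 44.2 counts per 1000000 (CPM), against 0.809 to 2.01 CPM in the others. Day 55 replicate 3 was of ordinary depth, with 1945847 counts, but detected 9819 genes, against 12080 to 18500 in the other libraries of ordinary depth, and lay farthest from the rest on the second principal component. The counts of genes among days and the trends of the named genes are given with and without them. Over all components, 37% of the variance lay between days, where 7 of the 23 degrees of freedom lie between days. Without the pair the share was 42.3%. Day also went along with the column of the plate. Libraries of day 7 lay in columns 4 and 5, of days 13 and 20 in column 5, and of day 26 in columns 5 and 6. Those of days 34 and 41 lay in column 6 and those of days 55 and 69 in column 7. Some days thus shared a column, but the early and the late days did not, and between these day and plate column cannot be told apart.

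**Figure D1:**
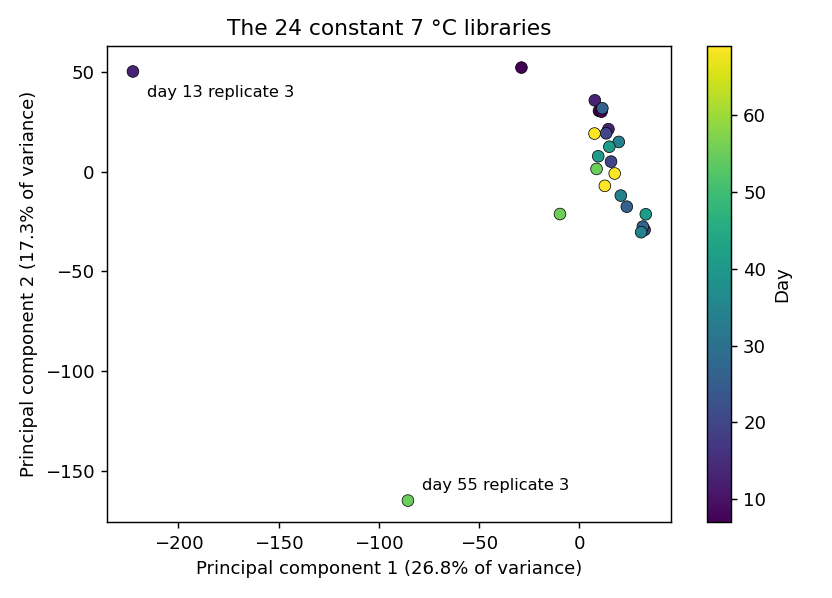
Scores of the 24 constant 7 °C libraries on principal components 1 and 2 of log2 CPM, 1 point a library, coloured by day. Day 13 replicate 3 lies alone at -222.7 on component 1 and day 55 replicate 3 alone at -164.9 on component 2, while the other 22 libraries score between -28.9 and 33.15 on component 1 and between -30.33 and 52.2 on component 2.

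Over days 7 to 69 at 7 °C, 436 genes rose and 557 fell. A linear trend in day was called for 993 of 10666 genes tested, or 9.31%, by edgeR's quasi-likelihood test at a Benjamini-Hochberg adjusted p under 0.05. The rising genes are 4.09% of those tested and the falling genes 5.22%. Among the rising genes the median log2 change over the 62 days was 1.35, with a median standard error of 0.34 and a middle range from 1.08 to 1.91. Among the falling genes the median was -1.98, with a median standard error of 0.47 and a middle range from -2.58 to -1.44. Falls of at least 8-fold were fitted for 95 genes and rises of that size for 17. Over all genes tested, the median change was -0.0026. Without the pair of libraries that stood apart, 1194 genes were called (466 rising, 728 falling), of which 883 were among the 993, all in the same direction. The count rests on the first day, since it was 385 without the libraries of day 7 and 1167 without those of day 69. It also moved to 251 without replicate 1 and to 309 without replicate 2, and was 684 without replicate 3, each of which takes 8 libraries away.

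The genes with a trend included some of the most abundant transcripts of the bud. Of the rising genes, 140 averaged at least 100 CPM, and of the falling genes 94 did. The share of all genes tested at that level is not given here, so that these counts do not show the lists to be richer in abundant genes. The highest means were 20610 CPM for a rising gene and 46780 CPM for a falling one. All 6 libraries of days 55 and 69 lay above all 6 of days 7 and 13 for 176 of the rising genes, where 2.53% of all genes tested did so. They lay below for 214 of the falling genes, against 2.42% of all genes. The trend had chosen these genes on the same libraries, so that the separation is a description.

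By the rule for naming genes, the largest rises and falls of the trend among genes with a mean of at least 10 CPM are described in full. Levels are CPM after TMM scaling. Gene 23279 had the largest rise. It stood at 4.74, 5.34 and 7.00 CPM in the 3 libraries of day 7. At day 13 it read 2.42, 27.2 and 29.4 CPM, the last from 2 counts in the shallow library. All 9 libraries of days 7, 20 and 26 lay at or below 15.5 CPM. At day 34 it read 11.5, 22.4 and 29.9 CPM, and at day 41 45.6, 24.9 and 23.1 CPM. At day 55 it reached 93.6, 62.5 and 175 CPM and at day 69 61.4, 97.5 and 211 CPM. The 6 libraries of the last days were thus above all 18 earlier ones. The fitted log2 change over 62 days was 4.47 ± 0.49 (SE, n = 24, edgeR adjusted p = 4.52e-07), and 4.19 without the pair that stood apart. The pretreatment buds read 3.18, 5.15 and 6.17 CPM, close to day 7.

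Gene 24907 rose over the course. It read 4.74, 6.68 and 5.84 CPM at day 7 and 9.69, 21.3 and 14.7 CPM at day 13. At day 20 its libraries disagreed, with 38.7, 9.06 and 7.00 CPM, and again at day 26, with 32.5, 37.8 and 8.58 CPM. At day 34 it read 59.4, 35.7 and 59.8 CPM and at day 41 54.1, 53.6 and 77.9 CPM. The later libraries read 40.8, 53.6 and 257 CPM at day 55, the highest being the library that stood apart, and 64.1, 67.6 and 27.5 CPM at day 69. From day 34 on the days overlapped. Over the 62 days the log2 change was 3.62 ± 0.67 (SE, n = 24, edgeR adjusted p = 0.000567), and it was 2.76 without the pair that stood apart (adjusted p = 0.00496). Its slope was 1.09 ± 0.36 log2 units per 10 days over days 7 to 26 and 0.094 ± 0.19 over days 34 to 69. Their difference did not pass (edgeR adjusted p = 0.178).

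Gene 10840 had the largest fall. At day 7 it read 133.9 and 120.8 CPM in replicates 1 and 3 and was higher, with 357 counts, in replicate 2, a mean of 138 CPM ± 19.4 (SD, n = 3). At day 13 it read 132, 82.2 and 29.4 CPM, the last from 2 counts. It then stood at 13.3, 11.7 and 48.4 CPM at day 20 and at 10.3, 16.8 and 17.7 CPM at day 26. At day 34 the libraries read 4.10, 7.59 and 0 CPM, and at day 41 1.69, 5.30 and 1.07 CPM. The late libraries read 0.669, 2.63 and 0 CPM at day 55 and 0.539, 8.83 and 0 CPM at day 69, where replicate 2, with 23 counts, stood above the others. All 3 libraries of day 7 lay above every library from day 20 on. The fitted log2 change was -6.57 ± 0.85 (SE, n = 24, edgeR adjusted p = 4.81e-06), and it rests on late libraries that mostly hold 0 to 5 counts. It was -6.53 without the pair that stood apart and -10.05 without day 69 replicate 2 alone. Over days 7 to 26 this gene fell by 1.75 ± 0.39 log2 units per 10 days (adjusted p = 0.0168), and over days 34 to 69 its slope was -0.091 ± 0.24. The curvature passed the test (adjusted p = 0.0463), while the difference of the slopes (adjusted p = 0.055) and the joint test of departure from a line (adjusted p = 0.48) did not. At day 0 it read 87.2, 330 and 395 CPM.

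Gene 18592 fell over the course, with its highest levels up to day 20. It read 10.2, 26.7 and 32.7 CPM at day 7, 29.7, 21.3 and 14.7 CPM at day 13, the last from 1 count, and 21.6, 7.77 and 37.6 CPM at day 20. The libraries of these days overlapped. At day 26 it read 8.28, 16 and 1.51 CPM, at day 34 6.15, 3.79 and 3.88 CPM, and at day 41 1.13, 2.65 and 3.22 CPM. At days 55 and 69, 4 of the 6 libraries held 0 counts and the replicates numbered 2 held 5 counts each. A count of 0 there allows up to 1.35 to 2.01 CPM for counting error only. The fitted log2 change was -5.97 ± 0.80 (SE, n = 24, edgeR adjusted p = 7.9e-06), or -5.73 without the pair that stood apart, and the departure from a line had an adjusted p of 0.979. The pretreatment buds read 35.6, 19.9 and 13.6 CPM.

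**Figure D2:**
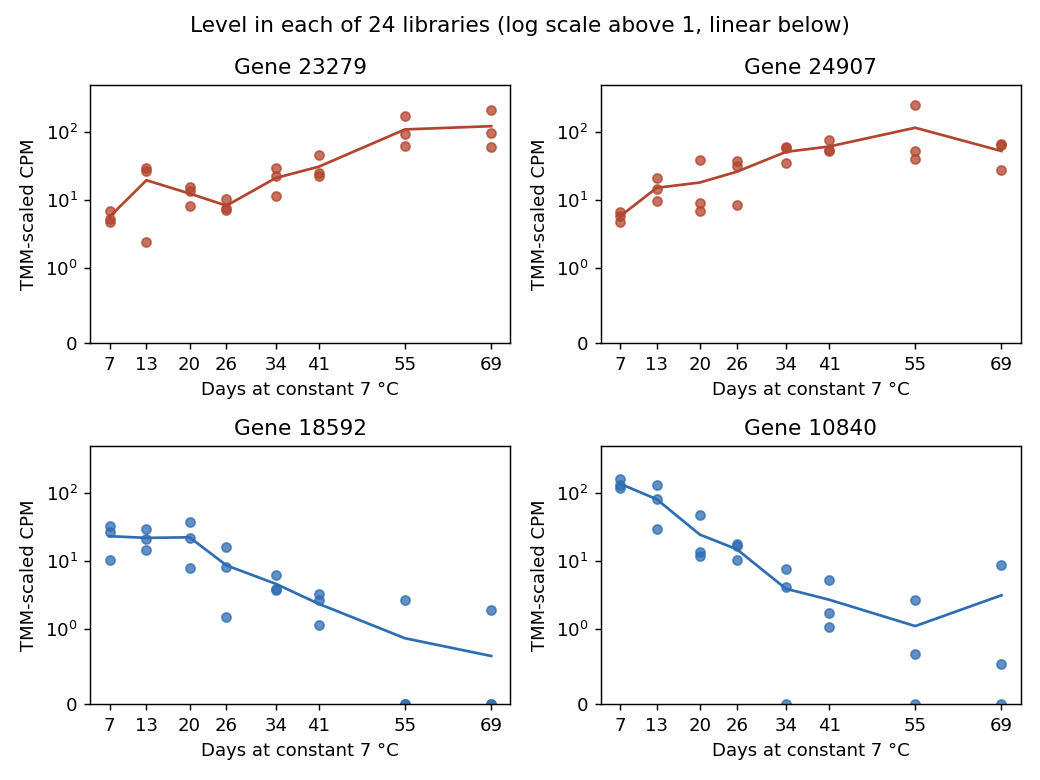
Level of the 4 named genes in each of the 24 constant 7 °C libraries, in TMM-scaled CPM (log scale above 1, linear below), against day. Points are libraries and lines join the means of 3 libraries; genes 23279 and 24907 rose from means of 5.70 and 5.75 CPM at day 7, and genes 18592 and 10840 fell from 23.2 and 138 CPM.

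The counts held by these gene lists show how much of the transcriptome shifted. The 436 rising genes held 5.79% ± 0.65 (SD, n = 3) of the counts at day 7, 9.60% ± 0.63 at day 26, 14.4% ± 2.0 at day 41 and 17.8% ± 1.3 at day 69. Their share at day 55 was also 17.8% (± 0.84; 18.6% in the library that stood apart, 16.9% and 17.9% in the others), so that the means of the last 2 sampling days did not differ. The 557 falling genes held 18.5% ± 0.59 at day 7 and still 17% ± 1.9 at day 26. They held 13.3% ± 2.6 at day 34, 9.54% ± 0.35 at day 41, 6.83% ± 0.77 at day 55 (7.08% in the library that stood apart, 7.45% and 5.96% in the others) and 6.29% ± 1.3 at day 69. Most of the drop in their mean share fell between days 26 and 55. The lists were chosen by their trend in these libraries, so the direction is given and no test is made.

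The falling genes kept most of their share up to day 26 through their most abundant members, 1 gene above all. This is a description with no test. The 10 most abundant falling genes held 12.7% ± 0.26 of the counts at day 7, 14% ± 0.81 at day 20 and 13.5% ± 1.9 at day 26. They held 6.94% ± 0.034 at day 41 and 4.50% ± 1.0 at day 69. The most abundant falling gene held 4.87% ± 0.11 at day 7 and 7.28% ± 2.5 at day 26, and stood at 3.53% ± 0.20 at day 41 and 2.37% ± 0.71 at day 69. Without that gene, the falling list held 13.6% ± 0.66 at day 7, 9.74% ± 1.8 at day 26 and 3.92% ± 0.62 at day 69. Among the rising genes, the most abundant held 0.898% ± 0.15 at day 7 and 2.80% ± 0.80 at day 69. The share of the 10 most abundant rising genes was 3.09% ± 0.53 at day 7 and 11.3% ± 0.88 at day 69.

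**Figure D3:**
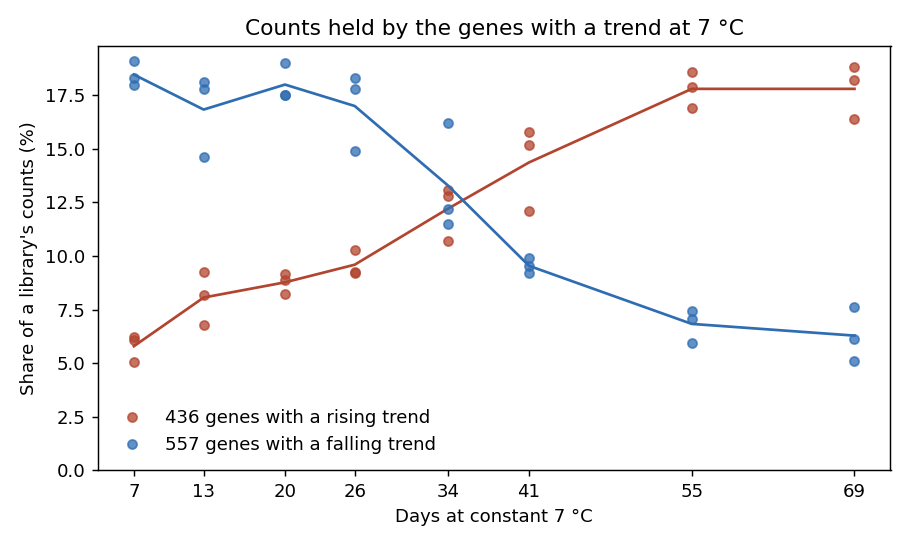
Share of each library's counts held by the 436 genes with a rising trend and the 557 with a falling trend, in percent, against day at constant 7 °C. Points are libraries and lines join the means of 3; the falling genes held 17% at day 26 and 9.54% at day 41, and the rising genes went from 5.79% at day 7 to 17.8% at day 55.

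Each day was set against the next. By edgeR's quasi-likelihood test, 0 of 11916 genes were called in each of the 7 intervals. With 3 libraries a day, this does not show that no interval carried the change. The interval from day 41 to day 55 had the most genes at an unadjusted p under 0.05, 1346 or 11.3% (423 higher, 923 lower at day 55). It was followed by day 55 to day 69, with 1053 or 8.84% (635 higher, 418 lower). These intervals are the longest, 14 days each, and they share the libraries of day 55. Without the pair of libraries that stood apart their shares were 7.05% and 4.28%, and day 55 to day 69 then lay below day 7 to day 13 (4.84%) and day 13 to day 20 (5%). In the 5 earlier intervals, of 6 to 8 days, between 1.07% (day 34 to day 41) and 3.51% (day 13 to day 20) of genes lay under an unadjusted p of 0.05. DESeq2 called 31 genes from day 41 to day 55, 7 from day 13 to day 20, 1 from day 7 to day 13, 1 from day 20 to day 26 and none in the other intervals. The typical change within an interval was small against its error: the median absolute log2 change was between 0.29 and 0.55, with a median standard error between 0.64 and 0.70.

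The result for day 55 depends on its libraries. With replicate 2 of that day left out, edgeR called 725 genes from day 41 to day 55 (97 higher, 628 lower) and 528 from day 55 to day 69 (460 higher, 68 lower). The remaining libraries of day 55 then include the one that stood apart. With all 24 libraries or without the pair, the count was 0 in both intervals.

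The lists with a trend, chosen for a linear trend in these same libraries, are described interval by interval. In the day profile fitted to all 24 libraries, the median rising gene stood 0.34 log2 units above day 7 at day 13, 0.59 at day 26, 0.99 at day 41, 1.43 at day 55 and 1.22 at day 69. The median falling gene stood at -0.40 at day 13, -0.85 at day 26, -1.32 at day 41, -2.02 at day 55 and -1.81 at day 69. Per 10 days, the median falling gene changed by -0.66 from day 7 to day 13 and by between -0.43 and -0.26 in each interval from day 13 to day 55. The median rising gene changed by 0.56 per 10 days from day 7 to day 13, by 0.13 from day 13 to day 20, and by 0.24 to 0.33 in each interval from day 20 to day 55. Without the pair that stood apart its first values were 0.70 and 0.04. From day 55 to day 69 the direction was not kept: the median rising gene changed by -0.11 and the median falling gene by 0.21, and 36% of the rising genes had a positive step. Without the pair of libraries that stood apart these steps were -0.06 and 0.09, with 43.3%. The median step over all genes tested lay between -0.10 and 0.10 in each interval.

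**Figure D4:**
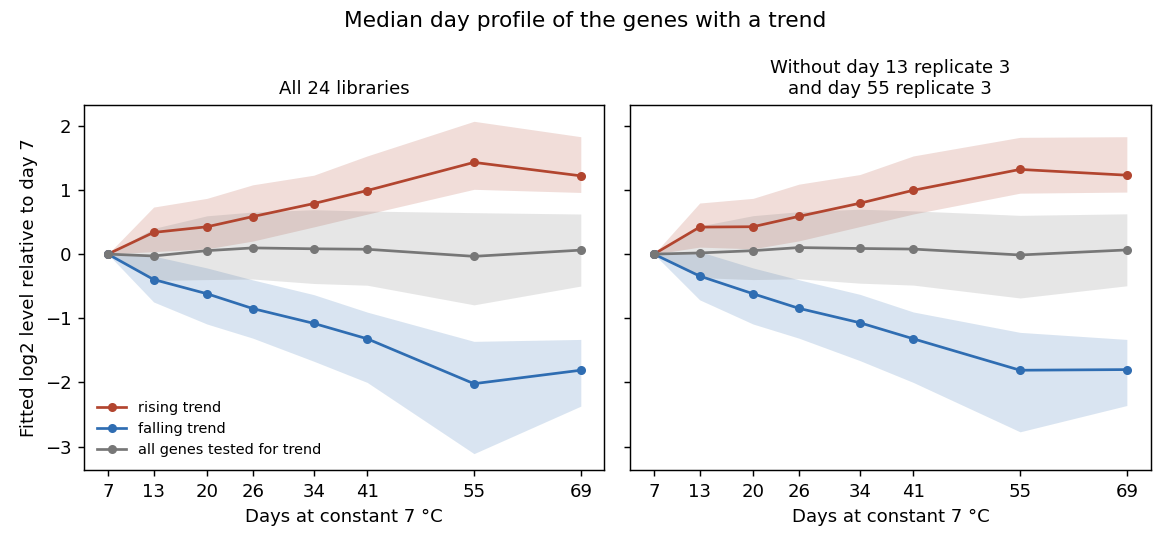
Median fitted log2 level relative to day 7 of the 436 rising genes, the 557 falling genes and all 10666 genes tested for trend, against day at constant 7 °C, with all 24 libraries (left) and without day 13 replicate 3 and day 55 replicate 3 (right). Shaded bands hold the middle 50% of genes; the rising and falling medians part at day 13 and stand at 1.43 and -2.02 at day 55 with all libraries.

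Whether the changes were linear was tested in 3 ways. A difference among days of any shape was called for 325 of 11916 genes (2.73%, edgeR's joint test of 7 terms), of which 259, or 79.7%, also had a linear trend. These 259 are 26.1% of the genes with a trend. Without the pair that stood apart 358 genes differed among days, and without day 55 replicate 2 alone 529. Departure from a straight line, the joint test of the 6 higher terms, was called for 6 genes (0.0504%), with 792 genes at an unadjusted p under 0.05. Of the 6, 4 also had a falling trend. They did not all move one way. Their median stood 0.36 log2 units above day 7 at day 13, at -1.77 at day 20, at -3.20 at day 41 and at -2.74 at day 69, while the upper quartile stood at 1.32 at day 69. A gene that missed it is not shown to be linear. Without the pair that stood apart 7 genes were called, 16 without day 55 replicate 2, 2 without day 34 replicate 2, and 3 without any 1 library of day 7.

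A bend of a single direction was called for 21 of 11450 genes (0.183%, the second-degree term in day), 13 bending upward (0.114%) and 8 downward (0.0699%). The 13 were genes below their day 7 level: their median stood at -2.78 log2 units from day 7 at day 26, -3.98 at day 55 and -2.34 at day 69. The median of the 8 stood above day 7, at 2.32 at day 26, 2.45 at day 34 and 1.85 at day 69. These genes were chosen by their bend in the same libraries, so that the medians are a description. The balance of directions depended on the setting: DESeq2 called 99 upward and 206 downward, and the fit without a filter on low counts 208 and 550. The count moved by over 1.5 times on leaving out any of 15 single libraries. It was highest, 107 and 91, without replicate 3 of day 55 and of day 26, and lowest, 9, without day 7 replicate 3. Downward bends were the more numerous without several of the single libraries, such as day 41 replicate 1 (22 upward, 43 downward) and day 55 replicate 3 (53 and 54).

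Slopes were also fitted apart for days 7 to 26 and for days 34 to 69. In the early part, 92 of 11450 genes were called (0.803%), 60 rising (0.524%) and 32 falling (0.279%), with RLE scaling 43 and 40. Without the pair that stood apart 291 were called, 111 rising and 180 falling. The count was 406 and 289 without replicate 3 of day 26 and of day 55, and 34 to 54 without replicate 1 or 2 of day 7 or of day 26. In the late part edgeR called 0 genes (871 at an unadjusted p under 0.05, 17 called by DESeq2), 1 without the pair and 7 without day 55 replicate 3 alone. The difference of the slopes was called for 143 genes (1.25%), 114 with a lower (0.996%) and 29 with a higher slope (0.253%) in the late part. The 114 genes had a median slope of 1.15 log2 units per 10 days in the early part and -0.29 in the late part. The 29 had medians of -1.15 early and 0.14 later. Both lists were chosen by the difference of these slopes in the same libraries, so that the medians are a description. Of the 143, 30 were among the genes with a linear trend, where 9.31% of all genes tested for trend were called.

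The counts by slope also moved with single libraries, that of the slope differences by over 1.5 times for 14 of 24. Without the shallow library of day 13 the count of 143 fell to 56 (29 with a higher and 27 with a lower slope later), and without both libraries that stood apart it was 361 (170 and 191). It was 743 and 497 without replicate 3 of day 26 and of day 55, 24 without day 26 replicate 2, 26 to 54 without any 1 library of day 7, and 26 when a term was added for libraries whose sample number carries a letter. For the genes with a linear trend, the median early slope was 0.32 log2 units per 10 days in the rising and -0.39 in the falling genes (median SE 0.21 and 0.28). In the late part the medians were 0.16 and -0.20 (median SE 0.11 and 0.15). On the scale of log2 of day, which takes change to slow with time, 1244 genes had a trend (586 rising, 658 falling), against 993 on the scale of days.

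The 2 lists were then read in libraries that had no part in choosing them. At constant 4 °C, 254 of 421 rising genes tested were called as rising (60.3%) and 0 as falling, where 7.96% of all genes tested at 4 °C rose. Of 528 falling genes, 390 were called as falling (73.9%) and 0 as rising, against 10.7% of all genes falling. At 2 °C, 53.3% of the rising genes were called as rising (8.56% of all genes) and 48.7% of the falling genes as falling (9.18%), with 2 and 3 genes called the other way. At 11 °C the shares were 34.3% (4.19%) and 52.2% (4.75%), with 0 the other way. The median log2 change over the 62 days was 0.98, 1.05 and 0.94 in the rising list for 2, 4 and 11 °C in that order, and -1.02, -1.52 and -1.40 in the falling list. Over all genes tested the medians were -0.03, 0.03 and -0.00048. In the buds moved to the fluctuating regime, 0 of 9911 genes had a trend over days 34 to 69 (edgeR, 12 libraries, with 974 at an unadjusted p under 0.05 and 8 called by DESeq2). There the median change was 0.37 in the rising and -0.50 in the falling list, against 0.07 over all genes. At constant 7 °C over the same days the medians were 0.56 and -0.71, in libraries of the First set that had helped to choose the lists. The fluctuating and 4 °C libraries are of the Second set.

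The named genes were also read at the other constant temperatures. Gene 23279 rose at 2, 4 and 11 °C, with log2 changes of 2.83 ± 0.32, 4.49 ± 0.39 and 4.99 ± 0.44 (SE, edgeR adjusted p = 5.92e-07, 7.57e-09 and 9.08e-09). Gene 18592 fell at the same temperatures, with changes of -4.35 ± 0.75, -5.50 ± 0.66 and -4.45 ± 0.72 (adjusted p = 0.000151, 7.82e-07 and 0.00014). Gene 10840 fell too, with -3.23 ± 0.82, -5.66 ± 0.65 and -9.13 ± 1.52 (adjusted p = 0.00625, 4.39e-07 and 0.000184). Gene 24907 rose at 2 and 4 °C, by 3.22 ± 0.51 and 3.87 ± 0.42 (adjusted p = 4.99e-05 and 1.92e-07). At 11 °C its change was 1.60 ± 0.95 (adjusted p = 0.328). For none of the 4 was a difference of the trend at 7 °C from that at 2 or 11 °C called by edgeR. The adjusted p was 0.2 to 0.926 against 2 °C and 0.839 to 0.93 against 11 °C. For genes 23279, 24907, 18592 and 10840 in that order, the log2 differences were 1.63 ± 0.63, 0.42 ± 0.91, -1.71 ± 1.16 and -3.52 ± 1.21 against 2 °C (SE). Against 11 °C they were -0.52 ± 0.72, 2.04 ± 1.23, -1.52 ± 1.15 and 2.41 ± 1.89. With such errors the trends are not shown to be equal.

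The difference of trends was tested across all genes in the First library set. Against 2 °C, the trend differed for 63 of 11681 genes (0.539%). In 30 genes (0.257%) it was the more positive one at 7 °C, and in 33 (0.283%) the more negative one. The 30 had a median log2 change of 1.01 at 7 °C and -1.39 at 2 °C, and the 33 of -1.51 at 7 °C and 0.81 at 2 °C. Of the 30, 25 had opposite signs at the 2 temperatures among the 27 with both trends fitted, and of the 33, 23 did. These genes were chosen by the difference in the same libraries, which favours opposite signs, so that the medians and signs are a description. The trend at 2 °C was itself called for 21 of the 30 and 14 of the 33. Of the genes with a trend at 7 °C, 8 rising and 22 falling genes were among the 63. Only 3 genes were called when libraries under 1000000 counts were left out, which removes all 3 libraries of 2 °C at day 7, and between 2 and 20 without a replicate number. Against 11 °C, 0 of 12055 genes were called (722 at an unadjusted p under 0.05, 3 called by DESeq2). There the median standard error of the difference over 62 days was 0.71 log2 units, against 0.67 for the difference from 2 °C. At 11 °C, day 7 replicates 1 and 3 held only 57968 and 27485 counts, and day 41 replicate 1 held 517681. Without libraries under 1000000 counts the count against 11 °C was also 0. This does not show that the time courses at 7 and 11 °C are alike.

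The share of counts held by the falling genes is described for each temperature, with no test. At 11 °C the list held 13.8% ± 0.49 (SD, n = 3) at day 7, where replicates 1 and 3 held only 57968 and 27485 counts, 10.4% ± 1.6 at day 26 and 6.11% ± 0.85 at day 41. At 4 °C it held 19.2% ± 0.94 at day 26, 18.6% ± 2.4 at day 34, 15.2% ± 2.4 at day 41 and 9.81% ± 5.5 at day 55. At 2 °C it still held 16.2% ± 2.8 at day 55 and 11.8% ± 1.8 at day 69. At day 41 the libraries of 11 °C (5.20% to 6.89%), 7 °C (9.19% to 9.90%) and 2 °C (13.3% to 18.5%) did not overlap. Nor did they at day 55, with 5.09% to 5.81%, 5.96% to 7.45% and 13.7% to 19.2% in that order. On the remaining days some did. At day 34 the libraries of 7 °C (11.5% to 16.2%) overlapped those of 2 °C (13.1% to 16%). At day 69 those of 7 °C (5.12% to 7.60%) overlapped those of 11 °C (4.24% to 6.36%). At day 41 those of 4 °C (12.4% to 17%) lay above 7 °C and overlapped 2 °C. Both the 4 °C and the fluctuating libraries are of the Second set, so that regime and library set cannot be told apart there, and the list was chosen at 7 °C. The rising genes at day 41 held 13.4% ± 0.64 at 2 °C, 12.8% ± 1.2 at 4 °C, 14.4% ± 2.0 at 7 °C and 14.8% ± 1.9 at 11 °C. Their libraries overlapped. At day 0 the rising list held 7.20% ± 0.92 and the falling list 17.5% ± 1.5. The rising share of each day 0 library (6.66% to 8.26%) lay above those of day 7 at 7 °C (5.05% to 6.24%), while the falling shares overlapped. The day 7 libraries at 7 °C had helped to choose the list, which favours a low share there, and those of day 0 had not. No drop from day 0 is read from this gap. At day 7 the rising list held 6.78% to 7.63% at 2 °C, 6.3% to 10.8% at 4 °C and 7.81% to 12.3% at 11 °C.

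**Figure D5:**
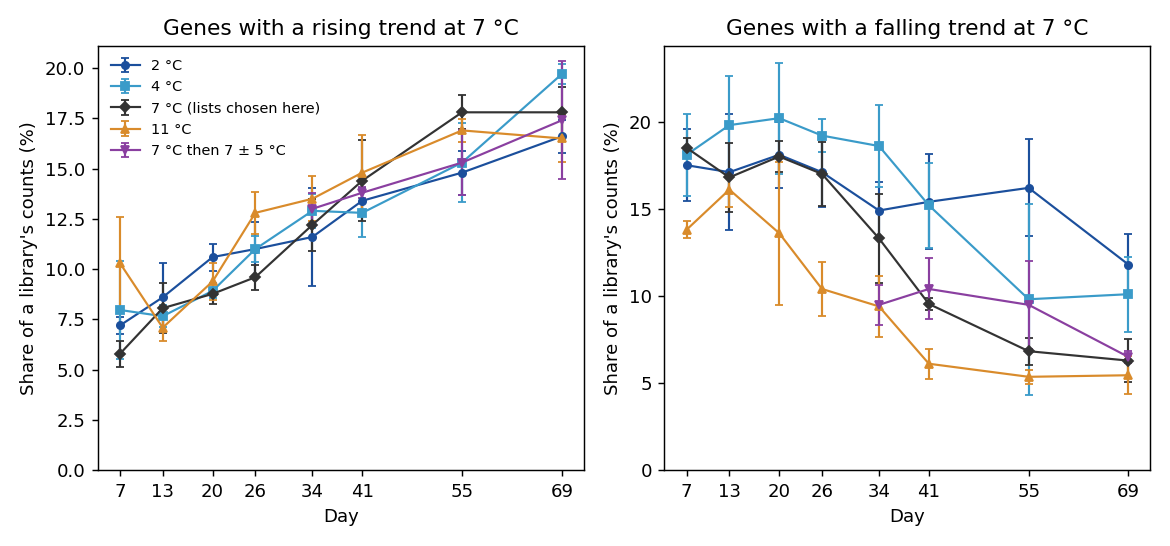
Share of a library's counts held by the genes with a rising (left) and a falling (right) trend at 7 °C, in percent, against day, for constant 2, 4, 7 and 11 °C and for buds moved from 7 °C to 7 ± 5 °C. Points are means of 3 libraries and bars are SD; at day 41 the falling genes held 6.11% at 11 °C, 9.54% at 7 °C and 15.4% at 2 °C, while the rising genes held 12.8% to 14.8% at every constant temperature shown.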

How the data were processed

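Bud RNA was made into QuantSeq libraries, which start from the 3′ ends of transcripts, and sequenced on a NextSeq500 with reads of 85 bases, per the labels' protocols. Such counts do not grow with transcript length. The authors deposited whole-number counts per gene without normalization. The submitters' processing notes name FastQC, STAR and DESeq2, with no role. The genome build, annotation and counting are not given in the sources used here. Each column used matched 1 library. Another 45 columns, of regimes not analysed here, were left out of the 156 in the series.

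The counts went through the quasi-likelihood test of edgeR 4.0.16 under R 4.3.3, after TMM scaling and a filterByExpr filter for each design, with Benjamini-Hochberg adjustment over all genes of a comparison and a threshold of 0.05. The 24 libraries of 7 °C entered each fit among days. Day was a number for the trend, a factor for intervals and for departure from a line, and a second-degree polynomial for curvature. Each standard error was derived from the test, as the absolute log2 change divided by the square root of its F statistic. Alternatives were DESeq2 1.42.0, RLE scaling, no filter, a replicate block, a term for a letter in the sample number, a minimum of 1000000 counts, and leaving out replicates, libraries or days. The fit without the pair that stood apart was added after seeing the data. The edgeR fits among days at 7 °C were also run on counts simulated with known changes. The other fits and summaries were not.

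The rule for naming genes took, for want of identifiers, 4 lines: the largest rises and falls of the trend at a mean of at least 10 CPM, since none passed its second part on single intervals. Gene lists planned by function were not used. The comparison, its tests and its lists were chosen with earlier results of these data known. Replicates are separate libraries, but the labels do not say that they came from separate plants, so that p-values measure the spread between these libraries. No pair of libraries of a day was identical or within sampling noise, the lowest chi-square per gene being 2.05 against a median of 21.1. That lowest value includes the shallow library of day 13. Among the pairs without it, replicates 2 and 3 of day 7 were the closest, at 2.89 with a correlation of log2 CPM of 0.966. The next, replicates 1 and 2 of day 41, stood at 7.28. Floors cover counting error only.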

Additional observations from a re-analysis of the deposited data

Results flagged for a closer look

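The slope of days 34 to 69 differed from that of days 7 to 26 in 143 genes at 7 °C, by a test of the difference itself. Of these, 114 had a lower slope later, and the count was 56 without the shallow library of day 13. The part of that library in the result was not tested beyond leaving it out.

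The trend at 7 °C differed from that at 2 °C in 63 genes, or 0.539%, by the test of the interaction, in 24 libraries of each temperature. The count was 3 among libraries of at least 1000000 counts, where 2 °C has no library at day 7.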

How the results depend on the processing

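The trend count of 993 stayed within 1.5 times under RLE scaling (1004), no filter (1054), DESeq2 (1393), the linear term of the fit with day as a factor (1022), every single library left out (744 to 1188) and without the pair that stood apart (1194), but not without day 7 (385). Without a replicate number it was 251 to 684, and only the 684 lay within 1.5 times. The 4 named genes kept their direction and their side of the threshold in all 38 alternatives, with adjusted p of at most 0.0222.

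Without a filter on low counts, 1307 genes differed among days, 510 departed from a line, 758 were curved, 368 and 57 had an early and a late slope, 486 a difference of slopes and 0.0489% of genes a difference from 11 °C, and the intervals from day 13 on called 27, 16, 30, 18, 73 and 18 genes. DESeq2 called 952 genes among days, 116 departures, 305 curved, 454 and 17 with an early and a late slope, 595 differences of slopes, a difference from 2 °C in 1.28% of genes and from 11 °C in 0.0249%, and 1, 7, 1 and 31 genes in the intervals from days 7, 13, 20 and 41. The cause was not tested.

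Same-numbered libraries of different days correlated at -0.0122 on average over 84 pairs and others at 0.00609, so the numbers were not taken to pair libraries. With the replicate block, 877 genes had a trend, 94 a difference of slopes, 2 departed from a line, and 1 changed from day 13 to day 20. With the term for a letter in the sample number these counts were 1095, 26, 2 and 1, and 12 genes were curved. With at least 1000000 counts, 56 genes differed in slope and 0.0258% in trend from 2 °C, against 0.539%. Without the pair that stood apart, 95 genes were curved, 291 and 1 had an early and a late slope, 361 a difference of slopes, and 0.474% of genes a difference from 2 °C. The share of variance between days was 36% with a prior count of 0.5, 42.3% without the pair, and 36.9% to 41.6% without single libraries.

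Leaving out a replicate number or a single library gave 14 to 529 genes differing among days, 0 to 16 departures, 3 to 107 curved, 4 to 719 early slopes, 0 to 7 late slopes, 1 to 743 differences of slopes and, without a replicate number, differences from 2 °C in 0.0169% to 0.166% of genes. It gave 0 to 725 genes from day 41 to day 55, 0 to 528 from day 55 to day 69, and 0 in the 5 earlier intervals. Against 11 °C the count was 0 without each replicate number, and single libraries were not left out there. The median standard error of a change within 1 interval was 0.64 to 0.70 log2 units, which limits what 3 libraries a day can show.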

Other observations

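Once the pair of libraries that stood apart was set aside, the largest axis of variation at 7 °C ran between libraries of the same day. Of the 26.1% of variance it held, 37.7% lay between days. Its upper end was formed by 4 libraries, 1 each of days 20, 26, 34 and 41, with scores from 56 to 76.5, against -91.9 to 36.8 in the other 18. In these 4 the 10 highest genes took 23.6% to 29.7% of the counts, against 31.6% to 44.8% in the 18, and the TMM factors were 1.21 to 1.42 against 0.791 to 1.11. None of the 4 carried a letter in its sample number, which 10 of the 22 libraries did. The labels do not explain that letter, and the part of this axis in the results among days was not tested. The second component, with 17.1% of the variance, had 70.6% of it between days. Day 7 replicate 1, which detected 12080 genes, lay alone at the low end of the first component, at -91.9 with the next library at -44.3. It was also the highest on the second component, at 101.6 with the next at 36.4.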
